A study of Homo sapiens with 12 samples.

Results

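The early transcript response to degradation of IGF2BP3 was examined in U937 cells after 6 h of the auxin analogue 5-Ph-IAA. U937 is a human monocytic line used as a model of acute myeloid leukemia (AML). Both groups carried BP3-mAID, in which a mini auxin-inducible degron is fused to IGF2BP3. The 6 h group had received 5-Ph-IAA for 6 h and the NT group was not treated, with 2 polyA RNA libraries each. The genes described are the 11802 with a base mean of 50 or more in the 6 h comparison, out of 24192 genes listed there, 13940 tested by the authors and 32321 listed in any table of the series. Base mean is the size-factor-normalised read count averaged over the 4 libraries. All 11802 had an adjusted p-value, and none was lost to a filter on low values beyond the limit of 50 itself. The 5 genes just outside that limit had base means of 49.94 (THSD1) to 49.996 (ENSG00000270012), the 5 just inside had 50.06 (BBS5) to 50.18 (CKMT2-AS1), and none of the 10 passed the authors' test. The series also holds U937 cells at 24 h of 5-Ph-IAA, which were compared with the same NT libraries. It further holds MOLM13 cells, an AML line, with hairpins against IGF2BP3 (shBP3-1, shBP3-2) or a control hairpin (shNS), delivered by lentivirus.

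IGF2BP3 is an RNA-binding protein of the oncofetal IGF2BP family that binds messenger RNAs, in part through N6-methyladenosine, and is known for stabilising them. In the mAID system an F-box protein of plant origin recruits the tagged protein to the ubiquitin ligase when an auxin analogue is added, so that the protein is removed within hours while its messenger is left to be made. Several programmes described here are switched at the transcript level within hours: SREBP transcription factors drive sterol and fatty acid genes when membrane sterol is low, ATF4 drives amino acid and tRNA synthetase genes under the integrated stress response, and ERK signalling induces its own feedback inhibitors.

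No values for single libraries were held, so each gene is given as group means computed from its base mean and fold change, and no spread between the 2 libraries of a group can be shown. A standard error (SE) on the log2 scale, worked out from the authors' p-value, stands in for it. Depth could only be estimated: size factors read from the lowest base means were 1.00 and 1.21 for the 6 h libraries and 0.85 and 0.99 for the NT libraries, and these times the summed base mean give about 11900000 and 14300000 reads in the 6 h libraries and about 10000000 and 11700000 reads in the NT libraries. The median SE was 0.28 for genes with base means of 50 to 200, 0.14 for 200 to 1000, 0.07 for 1000 to 5000 and 0.04 above 5000. Of 14 markers of monocytic U937 cells, CD33 (base mean 671), CD4 (2496), ITGB2 (6558), SPI1 (1249), ELANE (8230), PRTN3 (2339), AZU1 (1753), CSF3R (1656), FCER1G (326) and LYZ (241) were clearly present, whereas CSF1R had 40.5 and CD68, TYROBP and MPO had 4.86, 1.41 and 1.20. ALDOA and LDHB, glycolytic enzymes that most cells express well, were also low, with base means of 15.9 and 16.6. The reason for such values was not tested, and they are not read as absence of the transcripts. Markers of other cell types were listed in part. Of 13 T and NK cell markers 6 were listed, and they summed to 1857 normalised reads in 6 h cells and 2294 in NT cells, nearly all of it from NKG7, a cytotoxic granule protein, which fell. Of 9 B cell markers 5 were listed, with sums of 230.5 in 6 h cells and 273.4 in NT cells, and PAX5 fell. Of 15 erythroid and megakaryocyte markers 5 were listed, with sums of 105.2 in 6 h cells and 75.7 in NT cells, and none changed. Of 14 fibroblast, endothelial and epithelial markers 4 were listed, with sums of 824 in 6 h cells and 632.7 in NT cells, and PECAM1, an adhesion molecule that leukocytes also carry, rose. The base means of NKG7 (1985) and PECAM1 (698) exceed that of CD33, and the part of these markers in the results was not tested. No U937 cells without the degron given 5-Ph-IAA were analysed here, so an effect of the compound itself and loss of IGF2BP3 cannot be told apart. Nothing in the sources says that the 2 libraries of a group came from separate cultures, so the p-values measure the spread between these libraries, and the sources do not say whether the tagged line is a single clone.

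By the authors' deposited table, 3181 of the 11802 genes changed at an adjusted p under 0.05, which is 27% of those tested. Of these, 1494 (12.7%) were higher at 6 h and 1687 (14.3%) were lower. Changes of at least 2-fold were fewer, with 56 genes higher (0.474%) and 152 lower (1.29%). The median log2 fold change of all 11802 genes was 0.01. The share called depended on the level: 3.48% rose and 6.04% fell among genes with base means of 50 to 200, 24.4% rose and 24.4% fell between 1000 and 5000, and 21.5% rose and 51% fell above 5000. The smallest called change was 0.55 on the log2 scale in the lowest class and 0.08 in the highest. A count of called genes in a group of abundant transcripts is therefore to be read against these higher shares.

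**Figure D1:**
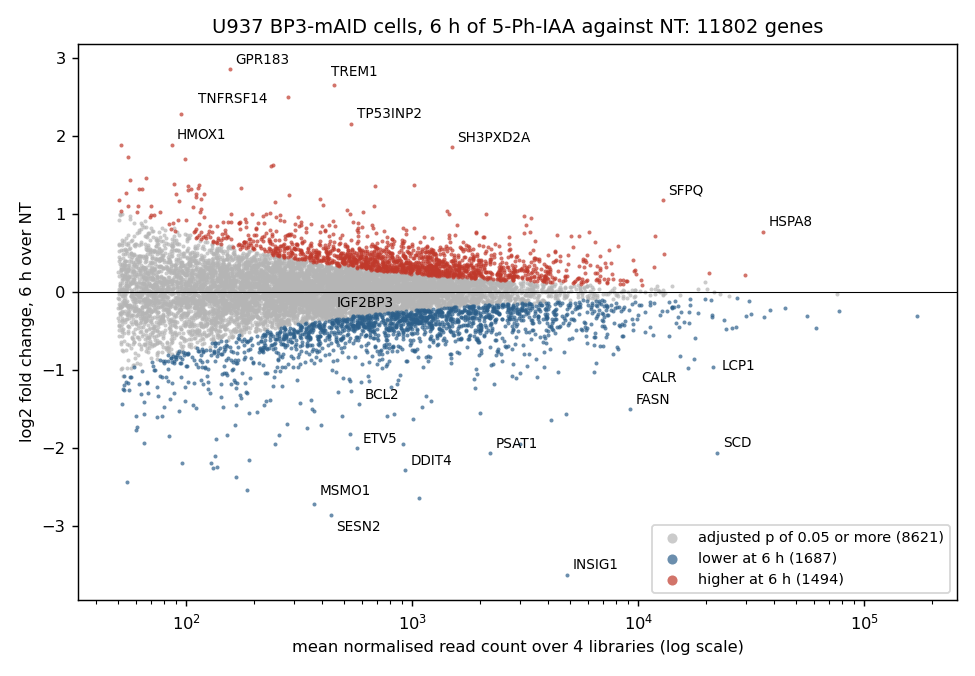
Each point is 1 of 11802 genes in U937 BP3-mAID cells, with the mean normalised read count of the 4 libraries on a log axis and the log2 fold change of 6 h over NT on the vertical axis. Red genes (1494) were higher and blue genes (1687) lower at 6 h with an adjusted p under 0.05, and the lowest point is INSIG1 at -3.63.

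The degraded protein's own messenger was examined first. IGF2BP3 (chr7:23310209-23470467, GRCh38) averaged 399 normalised reads in 6 h cells and 480.1 in NT cells. Its log2 fold change in the authors' deposited table was -0.27 (SE 0.14, adjusted p = 0.168, DESeq2), which did not pass the test, with a 95% interval of -0.54 to 0.01. The degron acts on the protein, so this value does not check the degradation, and protein was not measured in these files. The paralogue IGF2BP2 (chr3:185643739-185825056) fell to 211 in 6 h cells, against 379.8 in NT cells, or 55.6% of the NT level. Its log2 fold change in the authors' deposited table was -0.85 (adjusted p = 6.39e-06, DESeq2). IGF2BP1 was not among the listed genes.

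Genes of cholesterol synthesis and uptake fell together. Of 22 measured genes, 17 fell, none rose and 12 of the 17 fell at least 2-fold, with a median log2 fold change of -1.14 against 0.01 over all genes. Along the mevalonate pathway HMGCS1, which makes HMG-CoA, fell to 376 in 6 h cells, against 1451 in NT cells. It stood at 25.9% of NT. MVK, MVD and IDI1, later steps towards the isoprenoid units, stood at 35.2%, 33.1% and 33% of NT. FDFT1 and SQLE open the branch that leads only to sterols, and FDFT1 had 1239 normalised reads in 6 h cells and 4783 in NT cells. SQLE stood at 42.6% of NT. The deepest fall in the list was that of MSMO1, the C4-methylsterol oxidase, with 96.1 normalised reads in 6 h cells and 637 in NT cells and a log2 fold change of -2.73 (SE 0.17, adjusted p = 2.95e-54, DESeq2) in the authors' deposited table. STARD4, a cytosolic sterol carrier, fell to 30.7% of NT, LSS to 42.9% and DHCR7 to 48.3%. The 5 genes that did not pass were NSDHL (adjusted p = 0.0921), CYP51A1 (0.712), PMVK (0.375), TM7SF2 (0.873) and GGPS1 (0.347) by DESeq2 in the authors' deposited table. Of these CYP51A1, TM7SF2 and GGPS1 were among the thinly counted genes, with base means of 62, 68.8 and 90.0.

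Of the 10 genes that control this pathway, 4 fell and none rose. INSIG1 (chr7:155297776-155310235), which holds the SREBP complex in the endoplasmic reticulum and is itself a target of SREBP, had the lowest fold change of all 11802 genes. It averaged 719.6 normalised reads in 6 h cells and 8932 in NT cells, so that 8.06% of the NT level remained. Its log2 fold change was -3.63 and its adjusted p is listed as 0 in the authors' deposited table, which leaves no SE. SREBF1, the regulator with a preference for fatty acid genes, fell to 1008 in 6 h cells, against 2973 in NT cells. SREBF2, the regulator with a preference for sterol genes, fell to 2190 in 6 h cells, against 4225 in NT cells. MBTPS1, the first protease that cuts SREBP in the Golgi, stood at 65% of NT. The other 6 did not pass the test. SCAP, the sterol sensor that escorts SREBP, averaged 2046 normalised reads in 6 h cells and 2001 in NT cells, and INSIG2, the paralogue of INSIG1, 224 normalised reads in 6 h cells and 298 in NT cells.

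**Figure D2:**
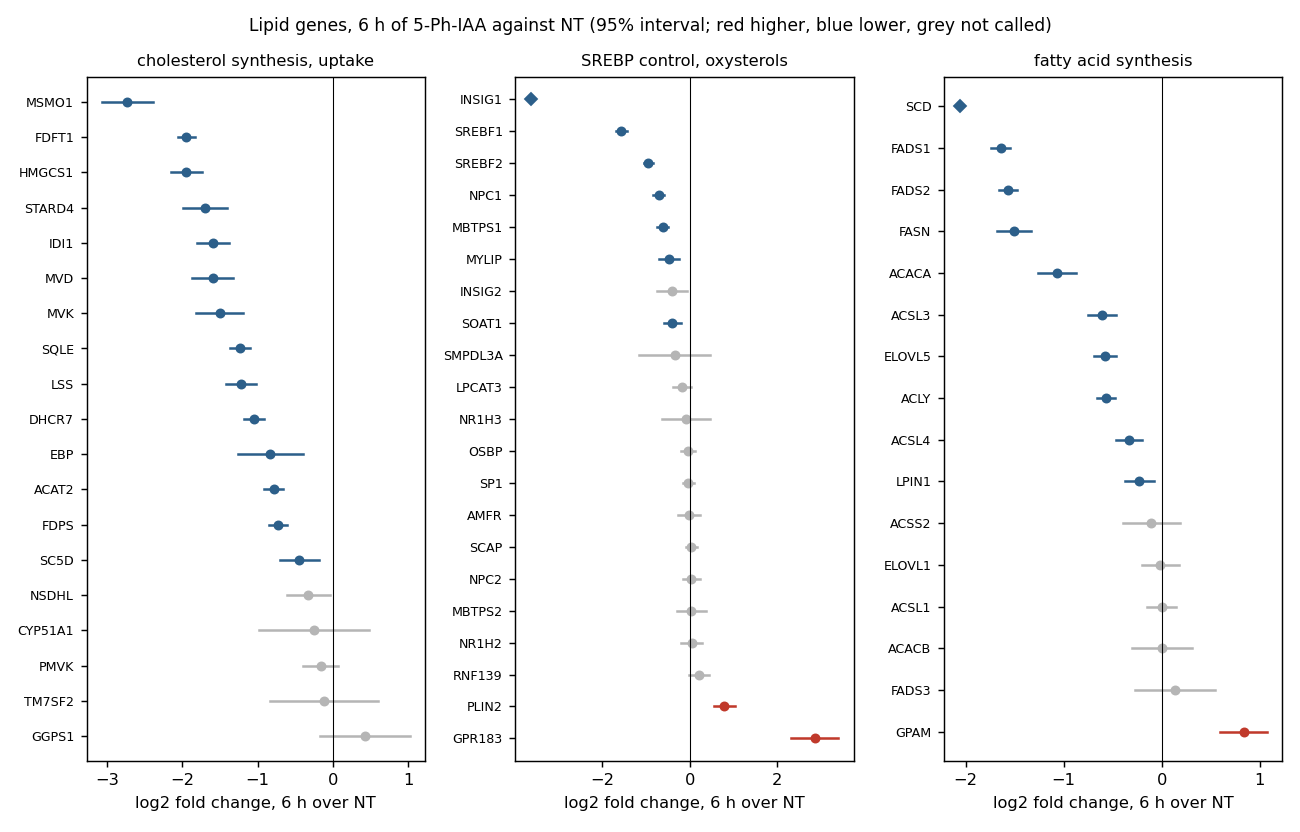
Log2 fold change of 6 h over NT (horizontal axis) for measured genes of the lipid lists, with 95% intervals worked out from the authors' p-values. Diamonds mark INSIG1 and SCD, which have no interval because the adjusted p is listed as 0, and blue, red and grey stand for genes that fell, rose or did not pass the test.

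Fatty acid synthesis and desaturation moved the same way in most genes. Of 16 measured genes 10 fell, 1 rose and 5 did not pass, with a median log2 fold change of -0.45 against 0.01 over all genes. SCD (chr10:100347124-100364834), the stearoyl-CoA desaturase, fell to 8643 in 6 h cells, against 36118 in NT cells, or 23.9% of NT. The desaturases of polyunsaturated fatty acids, FADS1 and FADS2, fell to 32% and 33.7% of NT. FASN, the fatty acid synthase, had 4809 normalised reads in 6 h cells and 13645 in NT cells. ACACA, which makes malonyl-CoA, stood at 47.7% and ACLY, which makes cytosolic acetyl-CoA, at 67.4% of NT. The exception was GPAM, the mitochondrial glycerol-3-phosphate acyltransferase, which rose to 772 in 6 h cells, against 433 in NT cells. ACACB, ACSS2, ACSL1, ELOVL1 and FADS3 did not pass the test, with values between 92.9% and 109.9% of NT.

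Genes of the oxysterol receptor LXR and of oxysterol sensing had no common direction. Of 11 measured genes 3 fell and 2 rose. The lysosomal cholesterol exporter NPC1 fell to 61.1% of NT, MYLIP, a ubiquitin ligase induced by LXR, to 72.1%, and SOAT1, which esterifies cholesterol, to 75.9%. PLIN2, a coat protein of lipid droplets, rose to 722 in 6 h cells, against 417 in NT cells. GPR183 (chr13:99294530-99307405), the receptor for an oxysterol and the gene with the highest fold change of all, rose to 275 in 6 h cells, against 37.8 in NT cells. Its log2 fold change in the authors' deposited table was 2.86 (SE 0.28, adjusted p = 2.51e-23, DESeq2). The receptors themselves, NR1H2 and NR1H3, stood at 103% and 94.1% of NT and did not pass.

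ATF4 and its stress targets fell in 14 of 17 measured genes, with 10 of them down at least 2-fold and a median log2 fold change of -1.10 against 0.01 over all genes. ATF4 (chr22:39519695-39522685), the transcription factor of the integrated stress response, fell to 2278 in 6 h cells, against 4875 in NT cells, or 46.7% of NT. SESN2 (chr1:28259527-28282491), a leucine sensor and inhibitor of mTORC1, had 106 normalised reads in 6 h cells and 769 in NT cells, the second lowest fold change of all genes. DDIT4, also an inhibitor of mTORC1, fell to 315 in 6 h cells, against 1546 in NT cells. SLC7A11, the cystine importer, stood at 28.4% of NT, and TRIB3, a pseudokinase that feeds back on ATF4, at 39.5%. VLDLR, HERPUD1, VEGFA and JDP2 stood between 32.4% and 46.3% of NT. The related factors DDIT3, CEBPB and CEBPG fell to 50.8%, 62.6% and 74.6%. Against this, PPP1R15A, the stress-induced phosphatase subunit that dephosphorylates eIF2-alpha, rose to 698 in 6 h cells, against 335 in NT cells. ATF5, a related leucine zipper factor, rose to 854 in 6 h cells, against 485 in NT cells. CDKN1A did not pass, at 39.7 in 6 h cells, against 63.3 in NT cells. Several ATF4 targets that the same list names had base means under 50, among them ASNS at 16.6, a value that is not read as absence of the transcript for the same untested reason as those of ALDOA (15.9) and LDHB (16.6). The kinases and exchange factors that set the response moved little: of 12, EIF2AK3 (PERK) fell to 72.6% of NT, EIF2S1 and EIF2B1 rose to 124% and 126%, and 9 did not pass.

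The charging enzymes for tRNA are known targets of ATF4, and 13 of 20 cytosolic aminoacyl-tRNA synthetases fell, 1 rose and 6 did not pass, with a median log2 fold change of -0.26. Of the 13, 7 fell at least 1.5-fold. GARS1, for glycine, had 2904 normalised reads in 6 h cells and 5914 in NT cells. AARS1, for alanine, fell to 2276 in 6 h cells, against 3968 in NT cells. CARS1, YARS1 and MARS1 stood at 59.3%, 60.4% and 60.4% of NT, VARS1, IARS1 and EPRS1 at 65.1%, 65.8% and 66.7%. RARS1, for arginine, was the exception and rose to 1447 in 6 h cells, against 1027 in NT cells. NARS1, TARS1 and LARS1 fell by the smallest steps, to 88.5%, 88.7% and 88.8% of NT. KARS1, QARS1, HARS1, FARSA and FARSB were among those that did not pass, at 89.7% to 105% of NT.

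Promoters of these genes were read for letters of the C/EBP-ATF response element, the composite site to which ATF4 binds with C/EBP partners. The forms TGATGCAAT and TGATGAAAC were searched on both strands in 300-base RefSeq windows (GRCh38.p14), 250 bases before to 50 bases after a gene's start, for the 8383 of 10066 protein-coding genes (83.3%) that have a window. The form TGATGCAAT lay in 0.468% of fallen, 0.0855% of risen and 0.0843% of not called genes, with TARS1 the only synthetase. TGATGAAAC lay in 0.234%, 0.171% and 0.135%. The 8-letter core TGATGCAA, which TGATGCAAT contains, was searched as an alternative with shorter letters. It lay in the windows of 23 of 1282 genes that fell (1.79%), 7 of 1170 that rose (0.598%) and 33 of 5931 that did not pass (0.556%), beside 1.08% of all 27305 genes in the table. Among the synthetases, 6 of 16 with a window held it, and all 6 had fallen. Among the ATF4 list 3 of 15 held it, and all 3 had fallen. The 9 sites are printed to show the letters shared by genes that fell together. Each runs 5′ to 3′ on the strand named, with the core in capitals.
AARS1, chr16:70289675-70289704, plus strand: tctaacttggcTGATGCAActgcgagaaaa
CARS1, chr11:3057407-3057436, plus strand: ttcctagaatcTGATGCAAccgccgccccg
IARS1, chr9:92293692-92293721, plus strand: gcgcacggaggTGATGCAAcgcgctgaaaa
MARS1, chr12:57488053-57488082, minus strand: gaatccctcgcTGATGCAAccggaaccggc
NARS1, chr18:57621804-57621833, minus strand: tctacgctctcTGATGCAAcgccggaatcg
TARS1, chr5:33440956-33440985, minus strand: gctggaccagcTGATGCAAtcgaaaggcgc
CEBPG, chr19:33374060-33374089, plus strand: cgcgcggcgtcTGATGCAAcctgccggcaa
HERPUD1, chr16:56931955-56931984, minus strand: tgggcacgggcTGATGCAAcccgccgcgtc
JDP2, chr14:75427995-75428024, plus strand: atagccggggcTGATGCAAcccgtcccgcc
The core lay 187 bases before the start in AARS1, 176 in HERPUD1, 42 in CEBPG, 16 in JDP2 and 13 in IARS1. In MARS1 and CARS1 it lay 4 and 2 bases before the start, and in NARS1 and TARS1 it began at base 15 and base 3 after it. Among these 9 genes the falls ranged from HERPUD1 at 41.3% to TARS1 at 88.7% of NT. Other genes of the ATF4 list fell further, such as SESN2 and DDIT4, with log2 fold changes of -2.86 and -2.29 in the authors' deposited table. GARS1, the synthetase that fell most, has a window without these letters. A match describes letters and is not shown to be a bound site.

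The sterol genes gave fewer matches. The letters TCACCCCAC of the sterol regulatory element, searched in the same windows, lay in 0.702% of fallen, 0.513% of risen and 0.54% of not called genes. They lay in none of 16 cholesterol genes with a window and in 1 of 8 SREBP control genes, SREBF2, which is known to drive its own promoter. SQLE, FDFT1 and FASN have no window in the table. The E-box CACGTG, to which SREBP proteins also bind, lay in 15.1% of fallen, 14.3% of risen and 12.8% of not called genes, INSIG1 and LSS among the fallen ones. The sites of SREBF2 and INSIG1 are printed as those of the regulator and of the gene with the deepest fall, with TCACCCCAC or CACGTG in capitals.
SREBF2, chr22:41832897-41833055, plus strand: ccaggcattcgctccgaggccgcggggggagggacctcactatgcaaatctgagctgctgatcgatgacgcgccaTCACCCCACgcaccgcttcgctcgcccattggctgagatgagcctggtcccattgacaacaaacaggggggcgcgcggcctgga
INSIG1, chr7:155297811-155297840, plus strand: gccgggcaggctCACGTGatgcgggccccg
These sites lay 133 bases before the start in SREBF2 and 55 bases before it in INSIG1. All windows come from RefSeq, build GRCh38.p14.

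Serine synthesis, one-carbon metabolism and amino acid supply also fell. Of 14 measured genes of serine and one-carbon metabolism, 10 fell and none rose, with a median log2 fold change of -0.40. PSAT1, the aminotransferase of serine synthesis, had 851 normalised reads in 6 h cells and 3570 in NT cells. The enzymes on either side of it, PHGDH and PSPH, stood at 58.5% and 59.3% of NT, and the mitochondrial folate enzymes MTHFD2 and SHMT2 at 52.6% and 64%. Of 13 amino acid transporters 9 fell and none rose. After SLC7A11, SLC38A2, a sodium-coupled neutral amino acid carrier, fell most, to 1775 in 6 h cells, against 3755 in NT cells. SLC7A5, the large neutral amino acid exchanger, stood at 63.3% and SLC1A5, a glutamine carrier, at 67.7% of NT. Of 12 genes of glutamine, asparagine and proline metabolism 6 fell and none rose, led by the alanine aminotransferase GPT2 with 582 normalised reads in 6 h cells and 1621 in NT cells.

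Chaperones of the endoplasmic reticulum fell as well. Of 23 measured genes 12 fell and none rose, with a median log2 fold change of -0.51. HSPA5 (BiP), the central ER chaperone, had 6118 normalised reads in 6 h cells and 10199 in NT cells. CALR, a lectin chaperone, fell to 11220 in 6 h cells, against 22066 in NT cells and HSP90B1 to 4183 in 6 h cells, against 8529 in NT cells. The disulfide isomerases PDIA4, PDIA3 and PDIA6 stood at 52.6%, 57.4% and 61.7% of NT. XBP1, a transcription factor of the unfolded protein response, fell to 1956 in 6 h cells, against 4011 in NT cells. The stress sensors ERN1 and ATF6 did not pass, at 107% and 98.1% of NT. Nor did SEL1L, SYVN1, DERL1 and DERL2, which act in degradation, at 89.6% to 109.6%. EDEM1, also a degradation factor, fell, with a log2 fold change of -0.57 (adjusted p = 3.26e-15, DESeq2) in the authors' deposited table. HSPA5, CALR, HSP90B1, PDIA3, PDIA6 and CANX, which are 6 of the 12 that fell, lie in the class above 5000, where 51% of all genes fell.

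**Figure D3:**
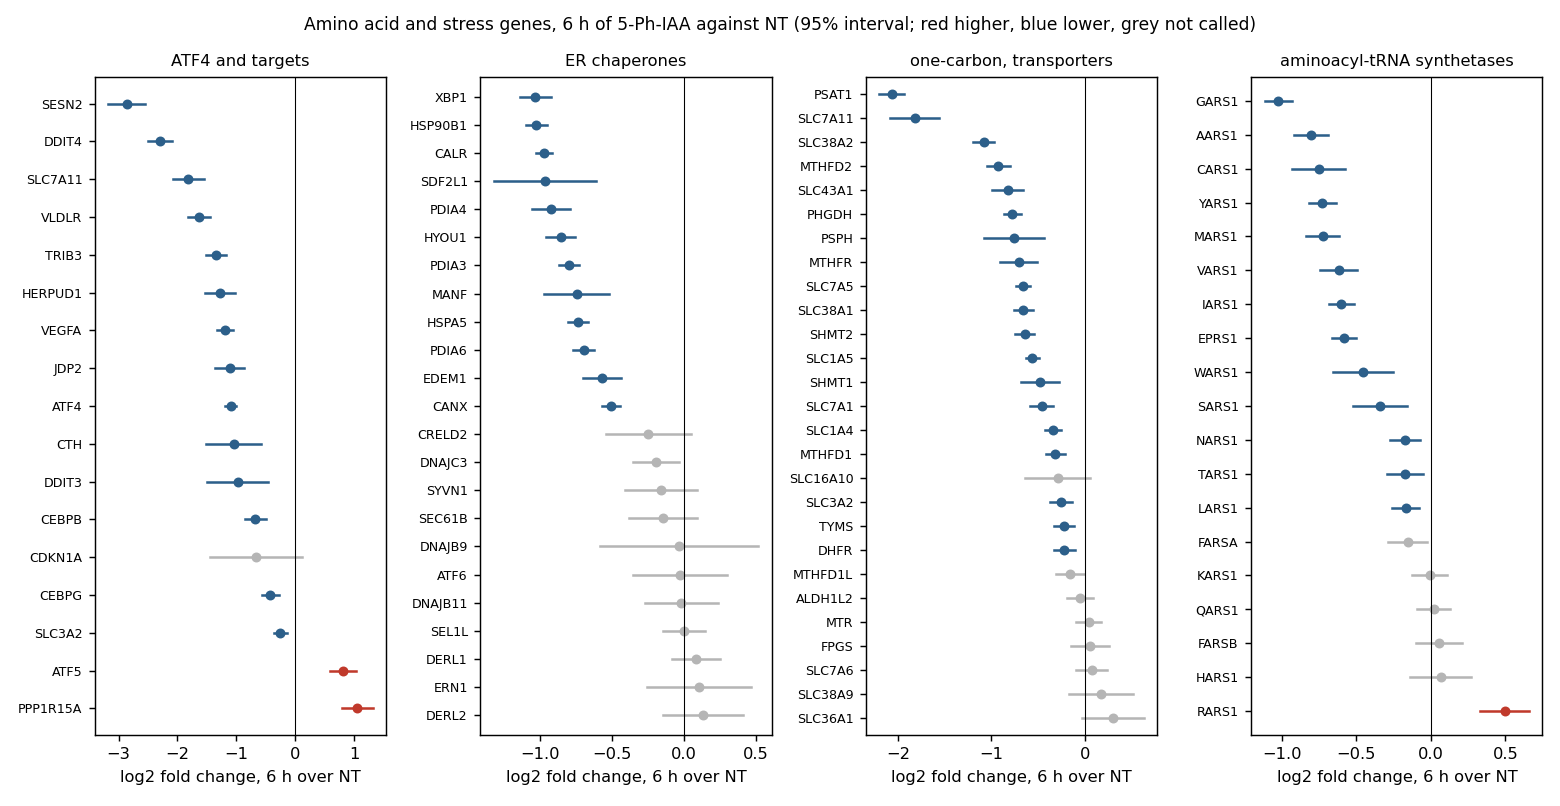
Log2 fold change of 6 h over NT (horizontal axis, with 95% intervals worked out from the authors' p-values) for genes of the ATF4, ER chaperone, one-carbon and transporter, and tRNA synthetase lists. Most points lie left of 0, from SESN2 at -2.86 upwards, and the red points to the right are ATF5, PPP1R15A and RARS1.

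Feedback genes of the MAP kinase pathway fell in 8 of 13 measured genes, none rose, and the median log2 fold change was -0.58 against 0.01 over all genes. The ETS factors ETV4 and ETV5, known targets of ERK signalling, fell to 21.1% and 24.9% of NT, with ETV5 at 227 in 6 h cells, against 915 in NT cells. SPRY4 and SPRED2, inhibitors of receptor signalling to ERK, stood at 32.9% and 44.8%, and the phosphatases DUSP6 and DUSP4 at 52.7% and 62.2%. Immediate early genes did not move as a group, with 2 of 15 higher and 1 lower: JUN rose to 2031 in 6 h cells, against 1119 in NT cells, KLF10 rose to 138% and NR4A1 fell to 54.3% of NT, while FOS did not pass at 65.4 in 6 h cells, against 82.3 in NT cells. Of 13 genes of PI3K feedback and FOXO targets, 4 rose and 1 fell. IRS2, the insulin receptor substrate, rose to 4107 in 6 h cells, against 2270 in NT cells, PIK3R1, the regulatory subunit of PI3K, to 2561 in 6 h cells, against 1576 in NT cells, and CITED2 and TXNIP to 141% and 131% of NT. CDKN1B fell to 87.4%. The mTORC1 list was mixed, with 4 of 27 higher and 5 lower, where RPTOR rose to 146% and EIF4EBP1, a repressor of cap-dependent translation and an ATF4 target, fell to 57.6%.

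Of 22 glycolysis genes, 14 fell (3 of them at least 1.5-fold) and 2 rose, with a median log2 fold change of -0.27. Over all genes 14.3% fell and 12.7% rose. Of the 14, GPI, GAPDH, PGK1, ENO1, PKM and LDHA lie above a base mean of 5000, where 51% of all genes fell. Between 1000 and 5000, 24.4% of all genes rose and 24.4% fell. The glucose transporter SLC2A3 fell most, to 131 in 6 h cells, against 425 in NT cells. Among the abundant enzymes PKM, PGK1 and GAPDH fell by small steps, to 73.1%, 74.6% and 80.6% of NT. SLC16A3, a lactate exporter, and PFKFB3 rose to 119% and 128%. Of 15 hypoxia genes 5 fell, VEGFA and PDK1 among them at 44% and 69.7%, and NDRG1 rose to 119%. Of 25 genes of the pentose phosphate pathway and the TCA cycle 5 fell and 3 rose, with IDH1, the cytosolic isocitrate dehydrogenase, lowest at 58.4%. Nuclear subunits of the respiratory chain were near NT, with 2 of 30 higher and 2 lower. Of 13 mitochondrially encoded messengers 8 fell (0 of them at least 1.5-fold) and none rose, with a median of -0.17, and MT-ND4 lowest at 72.3% of NT. Most of the 13 lie above a base mean of 5000, where 51% of all genes fell.

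Genes of the oxidative stress factor NRF2, of heme breakdown and of iron storage moved upwards in part. Of 17 measured genes 9 rose (3 of them at least 1.5-fold) and 4 fell, with a median log2 fold change of 0.33 against 0.01 over all genes. HMOX1, heme oxygenase, had 136 normalised reads in 6 h cells and 36.6 in NT cells. NQO1, a quinone reductase, rose to 810.4 in 6 h cells, against 398 in NT cells. FTH1 and FTL, the ferritin chains, rose to 170.2% and 116% of NT, and GCLC, which starts glutathione synthesis, to 149%. The 4 that fell include SLC7A11, which is also in the ATF4 list, and ABCC1 and TXN at 71.5% and 77.9%. Of 10 genes of iron handling 5 rose and 1 fell, where NCOA4, the ferritin receptor of autophagy, rose to 143%. Letters of the antioxidant response element, TGACNNNGC, are common and lay in 22.5% of fallen, 20% of risen and 19.3% of not called genes. SQSTM1, an autophagy receptor and NRF2 target, rose to 4135 in 6 h cells, against 2101 in NT cells, and TP53INP2, which promotes autophagosome formation, to 878 in 6 h cells, against 196 in NT cells. In all, 5 of 21 autophagy genes rose and 4 fell. Of 5 measured targets of the aryl hydrocarbon receptor, a sensor of indole compounds, 1 rose (NQO1, also an NRF2 target) and 1 fell (LPCAT2, 65.3% of NT), while CYP1A1 and AHRR had base means under 50.

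Myeloid genes were counted by the stage they mark. The primary granule list holds granule proteins made at the promyelocyte stage and other genes, such as MS4A3, CLEC11A and SERPINB1. Of its 10 measured genes 8 fell (3 of them at least 1.5-fold) and none rose, with a median log2 fold change of -0.48. Over all genes 14.3% fell. ELANE and CTSG lie above a base mean of 5000, where 51% of all genes fell. MS4A3, in the list as a marker of granulocyte and monocyte progenitors, fell most, to 77.1 in 6 h cells, against 251 in NT cells. PRTN3, proteinase 3, fell to 1696 in 6 h cells, against 2982 in NT cells, RNASE2 to 56.2%, LYZ to 67.6%, ELANE to 74.8% and CTSG to 81.6% of NT, while AZU1 did not pass. Of 15 markers of monocyte and macrophage maturation 4 rose and 2 fell. TREM1 (chr6:41267926-41286719), an amplifying receptor of myeloid cells, rose to 780.0 in 6 h cells, against 124 in NT cells. MARCO and CD36, scavenger receptors, rose to 228% and 144% of NT, and S100A9 and ITGB2 fell to 47% and 81%. Among 15 lineage transcription factors 5 rose and 6 fell. CEBPE, SPI1 (PU.1), ZEB2, CEBPA and MEIS1 rose to between 120.1% and 180.1%, and CEBPB, HHEX, ETV6, LMO2, GFI1 and IRF8 fell to between 62.6% and 85.4%. Of the 11 genes of the HOXA programme HOXA10 and MEIS1 rose, HOXA10 to 116%, and 9 did not pass.

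Among receptors of growth factors and cytokines, TNFRSF14 (chr1:2555639-2565382), a TNF receptor family member, rose to 481 in 6 h cells, against 84.8 in NT cells. Its neighbour on the other strand, TNFRSF14-AS1 (chr1:2549920-2557031), rose to 157 in 6 h cells, against 32.1 in NT cells. These genes overlap, and no source says that reads were counted by strand, so reads from this locus cannot be told apart between them. EPOR fell to 36% of NT, IFNGR2 to 64.2% and TNFRSF1A to 74.9%. The type I interferon list had a median of 0.00 with 3 of 16 lower and none higher. NF-kB genes split into 4 higher, RELA at 139% among them, and 4 lower, NFKB2 at 60.7% among them, of 13. Of 26 lysosome genes 7 rose and 7 fell, with GPNMB, a glycoprotein of maturing macrophages, highest at 2838 in 6 h cells, against 1415 in NT cells. The counts of these 3 lists stand beside 12.7% higher and 14.3% lower over all genes. Between base means of 1000 and 5000, 24.4% of all genes rose and 24.4% fell.

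Regulators of apoptosis moved in both directions. BCL2, the anti-apoptotic founder of its family, fell to 312 in 6 h cells, against 850.2 in NT cells. The BH3-only proteins BBC3 (PUMA) and PMAIP1 (NOXA) fell to 42% and 48.6% of NT, whereas BMF, another BH3-only protein, rose to 401 in 6 h cells, against 169 in NT cells. BCL2L11 (BIM), BCL2L1, BAK1 and BCL2A1 rose to 123%, 128%, 131% and 144%, which makes 5 higher and 3 lower of 14. Of 17 p53 targets 4 fell (GADD45A, BBC3, FAS, CCNG1) and ZMAT3 rose. MYC did not pass at 6 h, with 3630 normalised reads in 6 h cells and 3916 in NT cells and an adjusted p of 0.0864 by DESeq2 in the authors' deposited table. Its antagonist MXD4 rose to 195% and MXI1 fell to 66.5%.

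Cell cycle genes were counted by phase. Of 31 genes of the G1/S transition and DNA replication 10 rose (0 of them at least 1.5-fold, 2 with Holm adjustment) and 3 fell, with E2F1, the S-phase transcription factor, highest at 1162 in 6 h cells, against 780.3 in NT cells. Of 29 genes of G2 and mitosis none rose and 13 fell (0 of them at least 1.5-fold, 3 with Holm adjustment), among them TOP2A at 75.2%, HMMR at 73.5% and ESPL1, separase, at 70.8% of NT. The medians were 0.11 and -0.14. Over all genes with base means of 200 to 1000, 12% rose and 12.3% fell. Between 1000 and 5000, 24.4% rose and 24.4% fell, and above 5000, 21.5% rose and 51% fell. Of 17 G1 cyclins, kinases and inhibitors 8 fell and 2 rose, where CCND2 fell to 254 in 6 h cells, against 478 in NT cells and CDK6 did not pass at 3983 in 6 h cells, against 3960 in NT cells.

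Ribosome biogenesis genes rose in 13 of 29 (1 of them at least 1.5-fold, 6 with Holm adjustment) and fell in 3, with RRS1, an assembly factor of the large subunit, highest at 156% of NT, and the abundant nucleolar proteins NPM1, NCL and FBL lower at 87.8%, 93.8% and 82.6%. Cytosolic ribosomal proteins were near NT, with a median of 0.01 over 73 genes, 5 higher and 11 lower, and the lowest at 84.8% (RPL13A). Initiation factors were mixed, with 9 of 27 higher and 7 lower. Of 24 messenger decay factors 7 rose, UPF1 to 132% and PAN3 to 136% among them, and ELAVL1 and ZFP36L2 fell to 81% and 90.9%. By level, 12% of all genes rose and 12.3% fell at base means of 200 to 1000. The shares were 24.4% and 24.4% at 1000 to 5000, and 21.5% and 51% above 5000. Of 19 writers, erasers and readers of N6-methyladenosine 3 rose (YTHDF2, YTHDF3, WTAP) and 2 fell (HNRNPA2B1, HNRNPC). Of 8 measured transcripts described in the literature as targets of IGF2BP3, 5 fell and 1 rose. BCL2 fell most, CCNG1 stood at 61.7%, HMGA1 at 68.7%, CD44 at 80.3% and CCND3 at 88.6% of NT, while RCC2 rose to 133% and MYC and CDK6 did not pass.

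**Figure D4:**
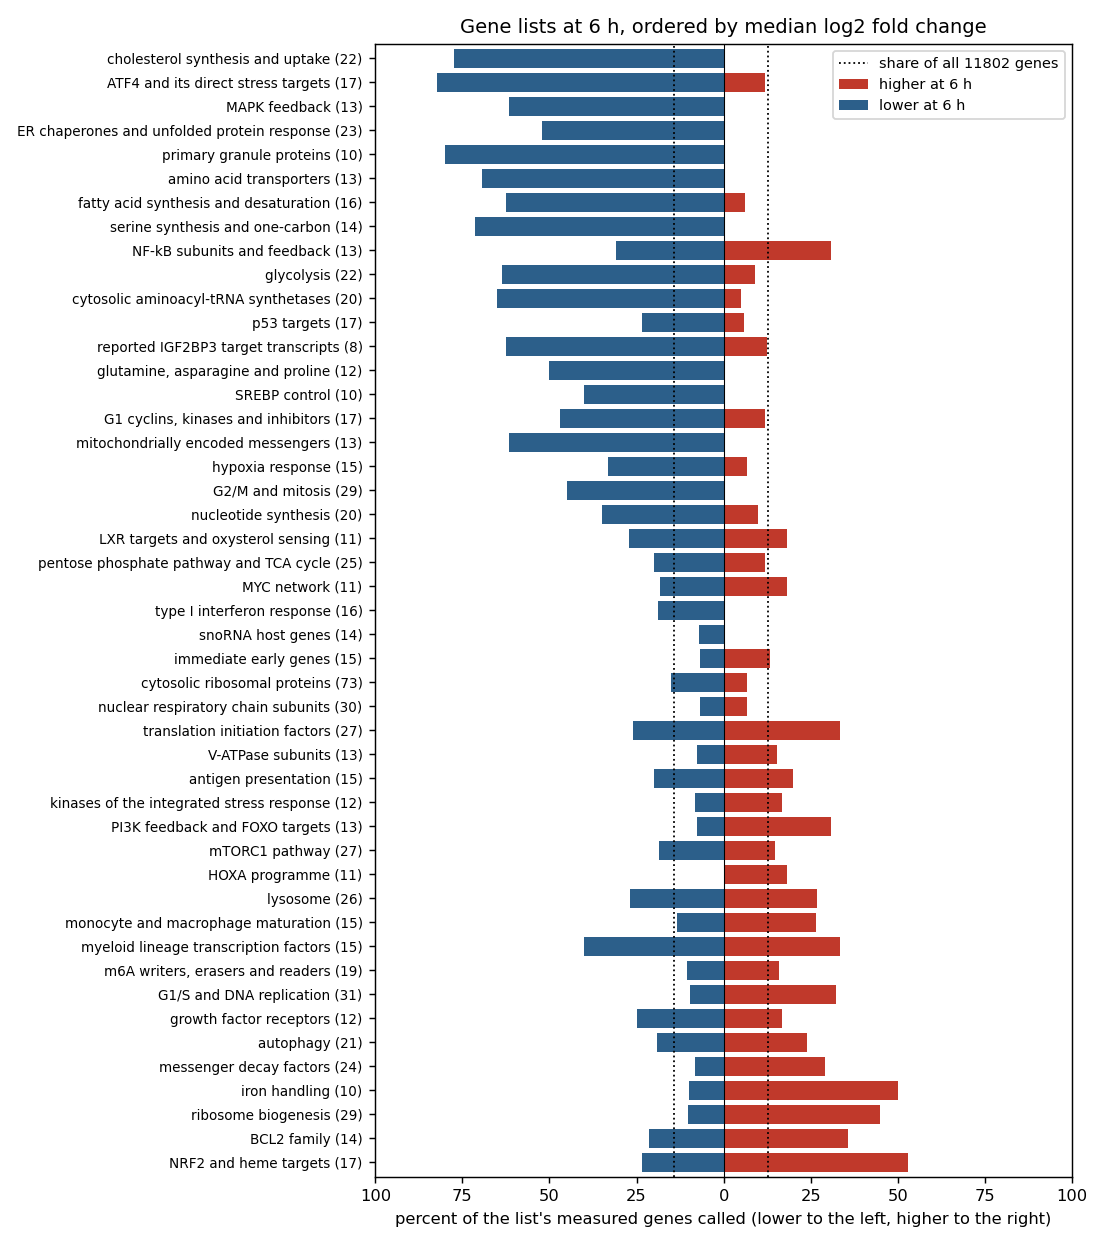
For each gene list with at least 8 measured genes (number in brackets), the percent of its genes that were higher (red, to the right) or lower (blue, to the left) at 6 h, ordered by the list's median log2 fold change. Dotted lines mark the shares over all 11802 genes, 12.7% higher and 14.3% lower, and the cholesterol list (17 of 22 lower) stands at the top.

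Several of the most changed genes belong to no list. Among the 15 highest was SH3PXD2A, a scaffold of invadopodia, with 2343 normalised reads in 6 h cells and 647 in NT cells. SKIL, a repressor of TGF-beta signalling, rose to 357 in 6 h cells, against 116 in NT cells, and LAMA1, a laminin chain, to 366 in 6 h cells, against 118 in NT cells. ATP2B2, MVP, BORCS7, PSCA, SYT11 and LACC1 complete the 15, with NT means of only 21.9 to 49 normalised reads and SEs of 0.31 to 0.43 on the log2 scale. Among the 15 lowest were the secreted peptide ADM2 (34.2 in 6 h cells, against 157 in NT cells), the binding protein IGFBP4 (69.2 in 6 h cells, against 309 in NT cells) and the innate regulator NLRP12 (50.7 in 6 h cells, against 219 in NT cells). RAB33A, C6orf223 and the non-coding transcripts SCIRT and OLMALINC stood between 17.2% and 21.7% of NT. NBPF17P, a pseudogene, fell to 45.5 in 6 h cells, against 218 in NT cells. It belongs to a family of near-identical copies, among which the authors' counting could have split or dropped reads, so its value is uncertain. The 6 most abundant genes that changed at least 1.5-fold were HSPA8, a constitutive chaperone that rose to 44817 in 6 h cells, against 26227 in NT cells, and SCD, LCP1, PRKDC, MSN and CALR, which fell. LCP1, an actin-bundling protein of leukocytes, had 14507 normalised reads in 6 h cells and 28247 in NT cells.

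At 24 h of 5-Ph-IAA the same NT libraries served as the control, so the fold changes at both times share them and are given side by side. The deposited log2 fold changes of INSIG1 were -3.63 at 6 h and -3.35 at 24 h, those of MSMO1 -2.73 and -2.62, and those of DDIT4 -2.29 and -2.06 in the authors' deposited tables. The difference of the fold changes was divided by its standard error and adjusted by Benjamini-Hochberg over all genes, which gave 1501 members higher and 1674 lower at 24 h than at 6 h, together 26.9% of the 11784 that could be tested. The SE used is too large because it counts the NT libraries as separate, and with the shared part taken out 2420 were higher and 2635 lower. PSAT1 was at -2.07 at 6 h and -3.90 at 24 h in the authors' deposited tables, without a test of the difference. A serine and one-carbon gene, a chaperone and a tRNA synthetase were lower at 24 h than at 6 h by the test: MTHFD2 (-0.93 and -1.52, adjusted p = 2.36e-11), HSPA5 (-0.74 and -1.38, adjusted p = 6.38e-35) and AARS1 (-0.80 and -1.94, adjusted p = 5.87e-44), each a log2 fold change from the authors' deposited tables.

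Of the 15 highest genes at 6 h, 9 were lower at 24 h than at 6 h by this test, against 14.2% of all genes tested. These genes were picked for high 6 h values that also enter the difference, so the choice favours a lower value at 24 h and the count is a description only. TREM1 had log2 fold changes of 2.66 at 6 h and 0.13 at 24 h in the authors' deposited tables, a difference of -2.52 (SE 0.26, adjusted p = 2.58e-20). HMOX1 stood at 1.89 and -0.14, LAMA1 at 1.63 and -0.08, and SKIL at 1.62 and -0.21 in those tables. NQO1, FTH1 and GPNMB were above NT at 6 h (1.03, 0.77 and 1.00) and below it at 24 h (-0.37, -0.66 and -0.23) in the authors' deposited tables. TP53INP2, MVP, PSCA and SYT11 showed no detectable difference between the times (adjusted p = 0.332 to 0.882). In the other direction, the progenitor marker MS4A3 was at -1.70 at 6 h and 0.52 at 24 h in the authors' deposited tables (adjusted p of the difference = 1.08e-14). The netrin receptor UNC5C was at -1.53 and 1.24, the cyclin CCNA1 at -0.55 and 1.74, ARHGAP31 at -0.38 and 1.42 and JUN at 0.86 and 2.66 in those tables. With MS4A3 these are the 5 largest tested differences of this sign among genes with a symbol that were called at 6 h. E2F1, risen at 6 h (0.57), stood at -1.50 at 24 h in the authors' deposited tables (adjusted p of the difference = 3.23e-39). The list of 31 G1/S genes had a median of 0.11 at 6 h and -0.87 at 24 h, and that of 29 G2 and mitosis genes -0.14 and 0.22.

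**Figure D5:**
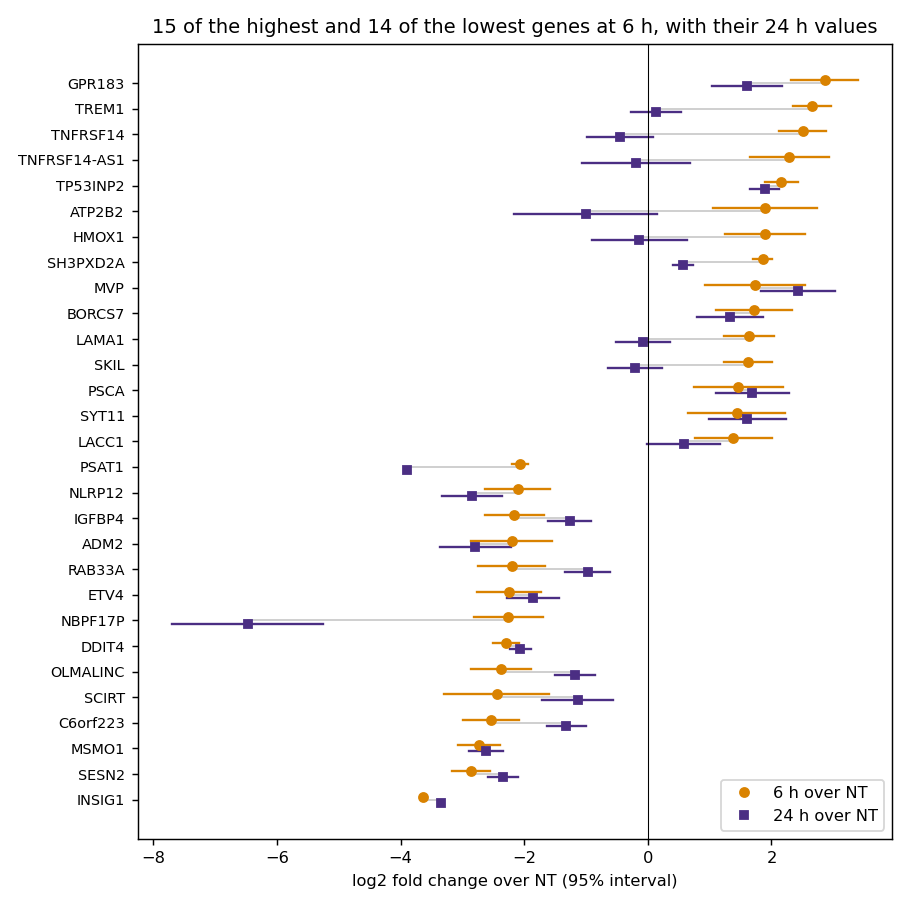
Log2 fold changes over NT at 6 h (orange circles) and 24 h (purple squares) for the 15 highest and 14 of the 15 lowest genes at 6 h, with 95% intervals where the adjusted p is not 0. Most of the lowest genes lie left of 0 at both times, whereas TREM1, TNFRSF14, HMOX1, LAMA1 and SKIL lie near 0 at 24 h.

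MOLM13 cells with hairpins against IGF2BP3 have their own controls and were set beside the U937 calls. Of the 1553 genes that fell at 6 h in U937 and were tested with shBP3-1, 498 (32.1%) fell and 347 (22.3%) rose with that hairpin, against 21% and 21.9% of all 10393 genes of the 6 h comparison tested there. The 498 are 22.8% of the genes that fell with shBP3-1. Of 1401 risen genes 413 (29.5%) rose and 304 (21.7%) fell with it. With shBP3-2, 734 of 1604 fallen genes (45.8%) fell and 398 (24.8%) rose, against 35.7% and 25% of all 10807 tested, and 734 are 19% of the genes that fell with it. Of 1426 risen genes 442 (31%) rose and 571 (40%) fell with shBP3-2. PSAT1 and PHGDH fell in MOLM13 too, with log2 fold changes of -2.53 and -2.05 with shBP3-1 and of -3.18 and -3.04 with shBP3-2 in the authors' deposited tables. The 22 cholesterol genes were counted for each hairpin, and the difference between the hairpins, which share the shNS libraries, was not tested: 4 fell and 3 rose with shBP3-1 (median -0.04), and 16 fell and 2 rose with shBP3-2 (median -0.69). INSIG1 stood at 0.14 with shBP3-1 and -0.91 with shBP3-2 on the log2 scale in the authors' deposited tables. BCL2 fell with both (-1.74 and -2.40), and GPR183 and TP53INP2 rose with both (2.90 and 2.53, 3.04 and 2.18) in the authors' deposited tables. Other lists went the opposite way in MOLM13. Of the 23 ER chaperone genes, 14 rose and 1 fell with shBP3-1, and 17 rose and 1 fell with shBP3-2. Of the 10 genes of the primary granule list, 9 rose and 0 fell with shBP3-1, and 9 rose and 1 fell with shBP3-2. Of the 29 ribosome biogenesis genes none rose, and 20 and 29 fell. SLC7A11, fallen at 6 h (-1.82), stood at 0.30 and 1.51.

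The response was also described by class and structure of the gene. Among protein-coding genes 1398 of 10066 rose (13.9%) and 1556 fell (15.5%), among long non-coding RNAs 84 of 1439 rose (5.84%) and 113 fell (7.85%), and the median base means of these classes were 523 and 148. IGF2BP3 is known to bind 3′ UTRs, so protein-coding genes were put in 4 classes of about equal size by 3′ UTR length (GENCODE 29). The length is that of the transcript with the longest coding part, which also gave the number of exons. From the shortest to the longest class 16.5%, 15.6%, 14.5% and 15.3% fell and 12.4%, 12.4%, 15.6% and 15.2% rose. By number of exons 12.3%, 14.4%, 16.3% and 20.2% fell from the fewest to the most, and the median base mean moved with it, from 360 to 814 normalised reads, so the part of the level in this order was not tested.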

How the data were processed

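Polyadenylated RNA of U937 BP3-mAID cells was sequenced after 6 h or 24 h of 5-Ph-IAA or without it, 2 libraries each. The submitters' processing notes name cutadapt 4.1, HISAT2 2.1.1, HTSeq 2.0.2, DESeq2 and the build hg38. The annotation release and any shrinkage are not given in the sources used here. The signal value is, per the file headers, the base mean: a read count divided by size factors by the authors and averaged over 4 libraries. The log2 values are fold changes as the authors deposited them, and the deposited p-value is adjusted by the authors. No values per library were held, so the test used throughout is the authors' own, as deposited, with an adjusted p under 0.05 counted as a change.

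The Benjamini-Hochberg step was undone to obtain unadjusted p-values, and SEs and 95% intervals from p and fold change assuming a normal test. Group means follow from base mean and fold change. Depth was estimated from the lowest base means, taken to come from 2 reads in 1 library. The recovery was tested on simulated data. The 24 h minus 6 h test divides the difference of both log2 fold changes by the root of their summed squared SEs, which treats the shared NT libraries as separate and so makes the SE too large. It was not possible for 18 of the 11802 genes, whose adjusted p is listed as 0 at 1 or both times. Gene positions and structure came from GENCODE 29 and promoter windows from RefSeq (GRCh38.p14). Windows matched 74.4% of all members, under the 80% needed, so only protein-coding genes (83.3%) were searched, a choice made after seeing the data. The text names, by rule, the 15 highest and 15 lowest called fold changes with a symbol, the IGF2BP family, the 6 most abundant genes changed at least 1.5-fold, up to 5 called genes per list, all genes needed to account for the sterol, amino acid and myeloid lists, 5 genes on either side of the base mean limit, and 5 per direction for the 24 h difference among genes called at 6 h. The members and the 54 gene lists were chosen with earlier results of these data known, some genes are in several lists, and lists are described by counts and medians only. Alternatives to the threshold, base mean limit, centring and adjustment were run with Python 3.11.15, pandas 2.3.3, numpy 2.4.6 and scipy 1.17.1. Some genes that this rule or the lists hold are not reported here by name, though counts and medians include them.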

Additional observations from a re-analysis of the deposited data

Results flagged for a closer look

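The responses at 6 h and 24 h differed by the test of the difference for 15 of 27 extreme genes at 6 h that could be tested and are reported, against 26.9% of all genes. These genes were picked for extreme 6 h values that also enter the difference, so the choice favours a move towards 0 at 24 h, and the counts are a description only. Values are log2 fold changes at 24 h minus 6 h from the authors' deposited tables, with adjusted p-values by Benjamini-Hochberg over all genes.

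Of the genes that were highest at 6 h, 9 were lower at 24 h. The difference was -2.95 for TNFRSF14 (adjusted p = 1.10e-16) and -2.48 for its overlapping antisense gene TNFRSF14-AS1 (adjusted p = 7.48e-05). For TREM1, the myeloid receptor, it was -2.52. ATP2B2, a calcium pump with few reads, differed by -2.89 (SE 0.73), and HMOX1 by -2.03 (SE 0.51). SKIL differed by -1.83 and LAMA1 by -1.71. SH3PXD2A and GPR183 differed by -1.29 and -1.26, and their log2 fold changes at 24 h over NT were 0.57 and 1.60 in the authors' deposited tables.

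Of the genes that were lowest at 6 h, 5 were higher at 24 h, where each still had a negative log2 fold change over NT. SESN2 differed by 0.53, IGFBP4 by 0.89, OLMALINC by 1.20, C6orf223 by 1.22 and RAB33A by 1.23. The pseudogene NBPF17P went the other way, by -4.22, on a locus with near-identical copies.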

How the results depend on the processing

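No paired analysis was possible because the deposited tables hold no values per library, and for the same reason no replicate could be left out. At least 1.5-fold, 291 genes were higher and 543 lower at 6 h. Holm adjustment left 434 higher and 677 lower. Thresholds of 0.01 and 0.1, base mean limits of 20 and 200 or none, centring on the median and protein-coding genes alone (the last chosen after seeing the data) kept both counts within 1.5 times of 1494 and 1687. Centring moved the split little, to 1416 higher and 1769 lower. With the shared NT part taken out of the SE, 2420 genes were higher and 2635 lower at 24 h than at 6 h. Asking for 1.5-fold in both lines, 21.2% of genes fallen at 6 h fell with shBP3-1, against 9.64% of all genes, and 30.5% with shBP3-2, against 21.3%. The shorter letters CACCCCAC lay in 4.21% and TGATGCAA in 1.79% of fallen promoters, where TCACCCCAC and TGATGCAAT lay in 0.702% and 0.468%: the shorter forms hold the longer ones. Among 37 genes named for their fold change, level or family, no direction changed in 310 comparisons with an alternative, and ATP2B2, MVP, PSCA, SYT11 and LACC1 lost their call under Holm adjustment only. Of 1062 counts of gene lists under alternatives, 162 moved by over 1.5 times: 76 at 1.5-fold, 56 with Holm adjustment, 13 and 8 at thresholds of 0.01 and 0.1, 7 at a base mean of 200 and 1 each with centring and protein-coding genes. Counts of fallen genes were 15 to 18 for cholesterol, 11 to 14 for ATF4 and 10 to 13 for ER chaperones, but went down to 4 (Holm) of 8 for MAPK feedback, 5 of 9 for amino acid transporters and 6 of 10 each for fatty acid and serine genes, these last 3 at 1.5-fold. At a threshold of 0.01, 8 of the 13 G2 and mitosis genes and 3 of the 5 risen BCL2 family genes were left. Depth limits the thinly counted genes: between base means of 50 and 200 no change under 0.55 on the log2 scale was called.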

Other observations

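Further gene groups were put together after their values had been seen and have no test of their own. Of 13 SR splicing factors and TRA2 proteins, which bind exonic enhancers, 10 rose at 6 h and none fell, against 24.4% higher over all genes with base means of 1000 to 5000 and 21.5% above 5000, the classes that hold 12 of the 13. In normalised reads, TRA2B rose to 6256 in 6 h cells, against 3800 in NT cells, SRSF3 to 8788 in 6 h cells, against 6023 in NT cells and SRSF2 to 6875 in 6 h cells, against 4957 in NT cells. At 24 h their log2 fold changes over the same NT libraries were -0.27, -0.39 and -0.61 in the authors' deposited tables, where they had been 0.72, 0.55 and 0.47 at 6 h. Of 10 components of paraspeckles, nuclear bodies built on a long non-coding RNA, 6 rose and 2 fell. Over all genes 24.4% rose and 24.4% fell at base means of 1000 to 5000, and 21.5% and 51% above 5000. In normalised reads, the scaffold NEAT1 rose to 4401 in 6 h cells, against 2270 in NT cells, SFPQ to 17856 in 6 h cells, against 7875 in NT cells and PSPC1 to 1462 in 6 h cells, against 564 in NT cells. NONO, the third protein of that family, did not pass at 8656 in 6 h cells, against 9093 in NT cells, and HNRNPK fell to 73.4% of NT.

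Of 19 actin-binding proteins of leukocytes 14 fell and none rose. MSN, which links actin to the membrane, fell to a normalised read count of 12462 in 6 h cells, against 22644 in NT cells, PFN1 to 5803 in 6 h cells, against 8652 in NT cells and CORO1A to 4746 in 6 h cells, against 7028 in NT cells, in a range of levels where many genes fell (51% above a base mean of 5000). Of 8 subunits of the oligosaccharyltransferase, which attaches N-glycans in the endoplasmic reticulum, 6 fell and none rose, STT3B to a normalised read count of 4904 in 6 h cells, against 7857 in NT cells. Of the 6, STT3B, RPN2 and DDOST lie above a base mean of 5000, where 51% of all genes fell. The others, STT3A, RPN1 and MAGT1, lie between 1000 and 5000, where 24.4% fell. Cytosolic heat shock proteins were mixed, with 4 of 12 higher and 3 lower: HSPA8 rose to 171% of NT, DNAJB2 rose to 196% and HSPB1 fell to 62.4%. Over all genes 12.7% rose and 14.3% fell. The shares were 24.4% and 24.4% at base means of 1000 to 5000, and 21.5% and 51% above 5000.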
